A study of Mus musculus with 2 samples.

Results

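Interleukin and tumour necrosis factor (TNF) superfamily genes were followed in teratomas, tumours in which transplanted pluripotent stem cells have differentiated into many tissues. The members were the genes that have their own probe set and a current mouse symbol beginning with Il and a number, Tnfsf, Tnfrsf, Socs or Csf with a number, together with Tnf, Lif, Lifr, Osm and Osmr. The rule used names only and no measured value, and it found 111 of 12393 genes, read by 170 probe sets. They were 46 cytokines and secreted antagonists, 57 receptors, 7 suppressors of cytokine signalling (SOCS genes) and Il4i1, an amino acid oxidase that shares only the prefix. The first of 2 Affymetrix arrays held RNA pooled from 2 tumours grown from embryonic stem cells of strain C57BL/6 (the B6 ES pool). The other held RNA pooled from 2 tumours of EiPS cells, induced pluripotent cells labelled 1E12 iPS at source, whose tumours were regressing according to the submitters (the EiPS pool). All tumours had grown under the skin of male B6 mice and were removed after 6 weeks, and each array was made from 5 µg of total RNA. The labels name no immune deficiency in the hosts and 1 line as the source of the EiPS tumours.

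Values are MAS5 signals, the summary of a probe set's brightness on a linear scale, and differences are log2 EiPS signal minus log2 B6 ES signal. With 1 array per group there is no replicate, no SD and no test: each value describes these 2 pools, and the number of arrays limits the precision. Signals under a floor of 26.0, the 90th percentile of 72 probe sets for odorant, vomeronasal, taste and trace amine receptors, were set to the floor, which makes a fold a lower bound, written "at least". The nearest gauge of error was how far probe sets of a gene disagreed: the SD of their log2 differences was 0.54 at signals under 100, 0.34 from 100 to 1000 and 0.19 at higher signals. Variation between tumours and between arrays is not part of it. In a piece of whole tumour, fewer cells of a type and less RNA per cell cannot be told apart.

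Interleukins, colony-stimulating factors and TNF-type ligands are short-range signals between immune, epithelial and stromal cells. IL-1 and TNF receptors signal through adaptor proteins to the transcription factor NF-kB, whereas receptors of the IL-6, common gamma-chain and colony-stimulating factor families work through Janus kinases (JAK) and STAT factors, which in turn switch on the SOCS genes that damp the same receptors. Many of these cytokines are made in brief bursts and at low RNA levels, and decoy receptors and receptor antagonists limit their action.

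Because 14 members had 2-fold or more higher signals in the EiPS pool, the letters just upstream of their start sites are shown wherever they hold a match to a motif of these pathways. Sequences came from RefSeq (GRCm38.p6), and those at hand covered 17 start sites for 12 of the 14 genes, without Il17b and Il10ra. The 250 bases before each start were searched on both strands for the STAT motif TTCNNNGAA, the AP-1 motif TGANTCA and an NF-kB motif, and no matches to different motifs overlapped in the sequences shown. Capitals mark the matches. The NF-kB motif was a single narrow form, and looser forms of it were not searched, so they stay in lower case.
Socs3 (STAT, chr11:117969367-117969616, minus strand): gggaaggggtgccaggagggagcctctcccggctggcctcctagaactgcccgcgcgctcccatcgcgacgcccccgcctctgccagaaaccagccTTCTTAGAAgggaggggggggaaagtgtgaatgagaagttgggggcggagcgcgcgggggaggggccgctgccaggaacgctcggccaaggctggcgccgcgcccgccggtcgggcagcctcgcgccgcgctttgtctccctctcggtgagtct
Il1r2 (STAT, chr1:40085843-40086092, plus strand): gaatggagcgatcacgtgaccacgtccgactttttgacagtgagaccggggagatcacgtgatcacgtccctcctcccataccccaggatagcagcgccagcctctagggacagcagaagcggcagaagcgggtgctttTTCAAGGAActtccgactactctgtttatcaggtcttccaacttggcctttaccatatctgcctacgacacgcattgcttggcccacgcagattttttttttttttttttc
Il7r (STAT, chr15:9529877-9530126, minus strand): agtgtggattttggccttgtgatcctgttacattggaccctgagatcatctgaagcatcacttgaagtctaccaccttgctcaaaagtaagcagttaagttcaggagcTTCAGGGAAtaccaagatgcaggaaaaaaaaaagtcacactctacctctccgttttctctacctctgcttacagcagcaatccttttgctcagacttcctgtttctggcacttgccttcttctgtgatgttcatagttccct
Tnfrsf9, second of 2 starts (STAT, then AP-1, chr4:150927749-150927998, plus strand): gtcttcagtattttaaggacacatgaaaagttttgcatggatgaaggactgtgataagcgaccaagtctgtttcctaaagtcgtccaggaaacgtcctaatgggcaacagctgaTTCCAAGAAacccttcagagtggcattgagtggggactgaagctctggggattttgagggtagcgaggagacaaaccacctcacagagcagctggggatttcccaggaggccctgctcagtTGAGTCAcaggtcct
Lif (AP-1, chr11:4257318-4257567, plus strand): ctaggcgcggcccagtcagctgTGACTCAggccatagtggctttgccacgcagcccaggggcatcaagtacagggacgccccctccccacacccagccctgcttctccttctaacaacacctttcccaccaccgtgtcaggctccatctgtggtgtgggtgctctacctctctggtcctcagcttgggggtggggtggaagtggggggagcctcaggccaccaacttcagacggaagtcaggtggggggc
Tnfrsf25, second of 2 starts (STAT, chr4:152116093-152116342, plus strand): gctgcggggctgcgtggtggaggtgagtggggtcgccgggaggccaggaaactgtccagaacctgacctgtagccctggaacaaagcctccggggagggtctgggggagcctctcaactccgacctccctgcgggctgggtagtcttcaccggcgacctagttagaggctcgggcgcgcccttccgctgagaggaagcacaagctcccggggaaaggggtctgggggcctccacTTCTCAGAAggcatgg
Il16, first of 3 starts by position (NF-kB, chr7:83655496-83655745, minus strand): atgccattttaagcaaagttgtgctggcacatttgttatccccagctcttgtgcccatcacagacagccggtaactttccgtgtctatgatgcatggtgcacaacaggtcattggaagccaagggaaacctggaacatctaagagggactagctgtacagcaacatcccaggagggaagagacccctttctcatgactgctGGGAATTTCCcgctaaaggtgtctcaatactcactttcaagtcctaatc
Il16, last of 3 starts by position (AP-1, chr7:83735540-83735789, minus strand): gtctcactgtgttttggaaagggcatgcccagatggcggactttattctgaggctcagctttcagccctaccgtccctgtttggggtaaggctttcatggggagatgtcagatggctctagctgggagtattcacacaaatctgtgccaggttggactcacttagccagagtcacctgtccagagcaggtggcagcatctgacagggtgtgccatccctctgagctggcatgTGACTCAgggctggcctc
The STAT motif was found at 5 of the 17 starts, in Il1r2, Il7r, Socs3, Tnfrsf9 and Tnfrsf25, and 7.02% of all 32851 promoters of the same length hold it. The AP-1 motif was found at 3 of the 17, in Il16, Lif and Tnfrsf9, against 6.75% of all promoters. The narrow NF-kB motif was found at 1, in Il16, against 0.356%. The sequence shown for Tnfrsf9 holds a near match to it in lower case, which was not counted. The NF-kB counts therefore do not show that the other starts lack a looser form. All measured members with a sequence had 75 starts, which include the 17. Of these 75, 11 held the STAT motif (14.7%), 11 the AP-1 motif and 2 the NF-kB motif (2.67%). The shares over the 75 are therefore not separate from those of the 14. Members outside the 14 with a match included Csf2rb2 and Tnfrsf1a for STAT, Il11 for AP-1 and Csf1 for NF-kB. A match describes the letters in this window and is neither a binding site nor a cause.

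Of the 111 members, 78 were above the floor on 1 array or more and could be compared, 64 of them on both arrays, 12 on the EiPS array only and 2 on the B6 ES array only. In the EiPS pool 14 of the 78 were at least 2-fold higher and none was at least 2-fold lower. Over all 10968 measured genes, 5.81% reached 2-fold on the higher side and 3.05% on the lower, so the members' share of 17.9% on the higher side lay above the background. By any amount, 49 members had higher and 29 had lower EiPS signals, where 56.3% and 43.7% of all genes did. The 12 members read on the EiPS array only could count as higher alone, here and in the counts by role below. Among members above the floor on both arrays 37 of 64 were higher (57.8%), near the 55.3% of all such genes. The median difference over the members was 0.24, beside 0.07 over all measured genes. The plot of both arrays' signals shows that most members lie among the dim genes, where folds are larger in general.

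**Figure D1:**
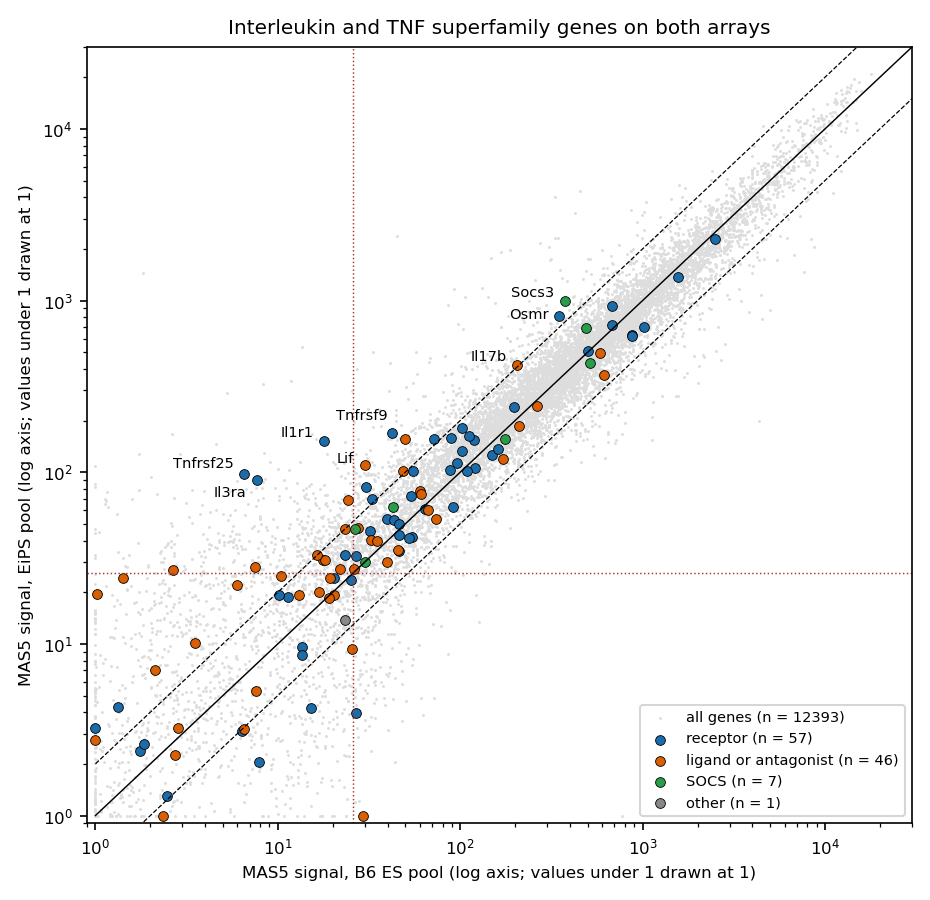
MAS5 signals of all 12393 genes (grey) and the 111 members (coloured by class) in the B6 ES pool (x axis) and in EiPS (y axis), 1 array each, on log axes, with the solid line at equality, dashed lines at 2-fold and dotted lines at the floor of 26.0. The 14 at least 2-fold higher members lie above the upper dashed line, and 8 of them are named. Points are drawn before low signals are raised to the floor. Tnfsf13b, Tnfsf10, Csf3 and Tnfsf8 therefore also lie above that line and the EiPS floor, without being among the 14. No member above the floor lies below the lower dashed line by 2-fold once low signals are raised to the floor.

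Signal level moved with the result and is given beside it. With the mean taken over log2 signals after flooring, 10 of 47 members with a mean under 100 were at least 2-fold higher, as were 12.9% of all genes that dim (3.41% were at least 2-fold lower). Among those with a mean signal of 100 or more, 4 of 31 were (Il1r2, Il17b, Osmr and Socs3), against 3.91% of such genes (2.95% were lower), and their median difference was -0.10. Of these 31, 15 were higher by any amount, beside 54.0% of all such genes. Of members above the floor on both arrays, 10 of 64 were at least 2-fold higher, a share of 15.6% beside 4.89% of all such genes (2.96% were lower). A 2-fold difference is 1 on the log2 scale, and for a dim gene this is less than 2 of the SDs between probe sets.

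Members of the IL-1 family with at least 2-fold higher signals included the signalling receptor, the decoy receptor and a cytokine. Il1r1, the receptor that passes on IL-1, gave 17.8 for the B6 ES tumours and 153 for the EiPS tumours, at least 5.87-fold higher. Il1r2, the decoy that binds IL-1 without signalling, had signals of 72.1 and 156, 2.17-fold higher. Il1b, the inflammatory IL-1 of myeloid cells, had 48.7 and 102, 2.09-fold higher. Both arrays thus read Il1r2 and Il1b above the floor, whereas Il1r1 passed it on the EiPS array alone. Il18bp, a secreted protein that neutralises IL-18, had 24.1 and 69.3, at least 2.67-fold higher, from a value just under the floor.

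The other IL-1 family genes differed by less. Il1rn, the secreted IL-1 receptor antagonist, had signals of 60.2 and 77.7 (0.37 on the log2 scale). Il1a, the IL-1 that epithelial cells hold ready, had 32.3 and 40.2 (0.32). Il1rap, the chain that Il1r1 needs to signal, had 118.9 and 154 (0.37). Il33 and Il18, alarmins of barrier cells, had lower EiPS signals. Il33 had 615 and 367, the most negative difference among the members at -0.74. Il18 had 584 and 494 (-0.24), a difference under the SD between probe sets at such signals (0.34). Il18r1, the IL-18 receptor, passed the floor on the EiPS array alone, at 33.1, with a difference of at least 0.35. The IL-36 group of skin cytokines lay near the floor: Il1f6 and Il1f8 (IL-36 alpha and beta) reached 27.1 and 30.7 in the EiPS pool alone, and the antagonist Il1f5 had 45.5 and 35.4. Il1f10 had 66.2 and 60.0. Il1rapl2, a relative of the IL-1 receptors found in brain, had 26.8, barely over the floor, and 3.98. Of the 10 ligands and antagonists measured, 6 had higher and 4 lower signals, with a median of 0.15, and of the 5 receptors 4 were higher, with a median of 0.37. The ligand median was -0.24 with a floor of 100, over 3 genes, and -0.14 over the 7 genes above the floor on both arrays.

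**Figure D2:**
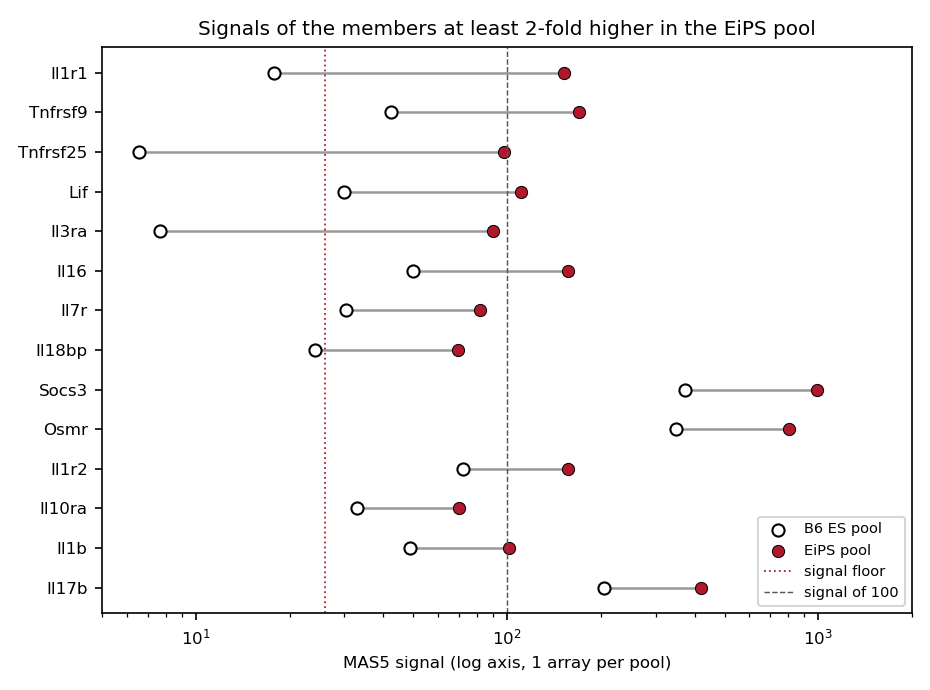
MAS5 signals (x axis, log) of the 14 members 2-fold or more higher in the EiPS pool, with the B6 ES pool as open and the EiPS pool as filled points, 1 array each, in order of the difference, and lines at the floor of 26.0 and at 100. Only Socs3, Osmr and Il17b lie above 100 on both arrays, and Il1r1, Tnfrsf25, Il3ra and Il18bp lie under the floor in the B6 ES pool.

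In the IL-6 and LIF family, 1 ligand and 1 receptor were 2-fold or more higher in the EiPS pool. Lif, leukaemia inhibitory factor, which keeps mouse stem cells undifferentiated and also rises in injured tissue, had signals of 29.9 and 111, 3.70-fold higher. Its other probe set was under the floor on both arrays. Osmr, the oncostatin M receptor of stromal and epithelial cells, had 348 and 808, 2.32-fold higher, and its probe sets gave at least 1.19 and 1.22 on the log2 scale. The shared chain Il6st (gp130) had 1563 and 1371 (-0.19), and its 3 probe sets ran from -0.56 to -0.19. Lifr, the LIF receptor, had 678 and 717 (0.08). Il6ra, the IL-6 receptor, had 96.2 and 112, with probe sets of opposite sign (-0.57 and 0.23). Il11 had 39.9 and 30.0 (-0.41). Il6 itself was under the floor on both arrays, at 1.42 and 24.1, so no fold is given. Osmr thus stood apart from its partner chain Il6st, whose 3 probe sets were all lower in the EiPS pool.

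Socs3, the SOCS gene that STAT3 induces and that blocks signalling through gp130, was the SOCS gene with the largest difference. Its signals were 374 and 990, 2.65-fold higher in the EiPS pool, and its 3 probe sets gave 1.38, 1.41 and 1.47. Socs1, which responds to interferon, had 26.6 and 46.4 (0.80). Socs2, a brake on growth hormone signalling, had 492 and 695 (0.50), the same direction in both of its probe sets. Socs7 had 42.9 and 62.5 (0.54). The remaining genes lay at or below equality: Socs4 had 29.97 on both arrays, with another probe set at 0.11, Socs5 had 516 and 435 (-0.25), and Socs6 had 176 and 157 (-0.17), with another probe set at 0.65. Both arrays read all 7 SOCS genes above the floor, 4 of them with higher EiPS signals, and the median was 0.50.

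Colony-stimulating factors and their receptors showed little difference, with an exception in Il3ra. Csf1, the macrophage growth factor, had signals of 264 and 243, with its 4 probe sets from -0.26 to 0.35. Il34, the other ligand of the same receptor, had 172 and 120 (-0.52). Csf1r, the receptor both share and a marker of macrophages, had 2507 and 2269 (-0.14), and its 3 probe sets all lay below 0. All of these differences were under 2-fold, and the Csf1 probe sets went both ways. Only the Il34 difference, from a single probe set, exceeded the SD between probe sets at its signal (0.34). Csf3, the granulocyte factor, was above the floor only in the EiPS pool, at 27.9, and its receptor Csf3r had 63.97 and 61.3 (-0.06). Il5, the eosinophil factor, had 26.3 and 27.3 at the floor. Csf2rb, the shared beta chain, had 53.7 and 72.5 (0.43), and its mouse duplicate Csf2rb2 had 149 and 126 (-0.24). Csf2ra had 162 and 137 by its brightest probe set, whereas the other gave 1.47. Il3ra, the IL-3 receptor alpha chain, had 7.65 and 89.9, at least 3.46-fold higher, on a single probe set. Of 6 receptors, 2 had higher and 4 lower signals (median -0.10, or 0.19 with the mean over probe sets).

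Among common gamma-chain and IL-13 genes, the ligands were mostly not measurable. Il2, Il4, Il7, Il9 and Il13, growth and polarising factors of lymphocytes, were under the floor on both arrays. Il15, which sustains natural killer cells, had 74.1 and 53.4 (-0.47), and Il21 had 29.2 and 0.853, the latter under the floor. Of the receptors, Il7r, the IL-7 receptor of lymphocytes, had 30.3 and 81.7, 2.70-fold higher, and its other probe set was higher by at least 0.35. Il4ra, the chain that carries IL-4 and IL-13 signals, had 102 and 181 (0.82), with 3 probe sets from 0.40 to 1.09. Il13ra1 had 197 and 239 (0.28), with 4 probe sets from -0.20 to 0.89. Il2rb and Il15ra, chains of the IL-2 and IL-15 receptors, had -0.41 and -0.38, and a second Il15ra probe set gave 0.65. The receptor values therefore went both ways, with 3 higher and 2 lower.

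Among ligands of the IL-10, IL-12 and IL-17 families and other ligands listed with them, Il16 and Il17b had at least 2-fold higher EiPS signals. Il16, a chemoattractant for CD4+ cells that is stored as a precursor in lymphocytes, had 49.7 and 157, 3.15-fold higher, and its probe sets gave at least 1.102 and 1.66. Il17b, an IL-17 family member found outside the immune system, had 204 and 421, 2.06-fold higher, on a single probe set. Il17d, another such member, had 210 and 186 (-0.17). Il12b, a subunit of IL-12 and IL-23, was above the floor only in the EiPS pool, at 30.8. Il10, Il12a, Il17a, Il20, Il23a, Il24 and Il25 were under the floor on both arrays. On the receptor side, Il10ra, the IL-10 receptor chain of leukocytes, had 32.9 and 70.1, 2.13-fold higher. The other Il10ra probe sets were under the floor on both arrays. The widely expressed chain Il10rb had 502 and 505 (0.0090). Il17ra, the shared IL-17 receptor chain, had 89.4 and 158 (0.82), and both of its probe sets were above 0. Il17rc had 102 and 134 (0.39), Il17rd 27.0 and 32.6 (0.27), and Il17rb 46.0 and 43.0 (-0.10). Il17re had 121 and 106 (-0.19), against 1.23 in another probe set. Of 7 receptors, 5 were above equality in the EiPS pool (median 0.27), and 3 were after quantile normalization (median -0.0088).

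No TNF superfamily ligand reached 2-fold. The 6 measured ones had higher EiPS signals, but Tnfsf13b, Tnfsf10 and Tnfsf8 were read on the EiPS array only, so the direction could differ in 3 alone. Tnf, the founding inflammatory ligand, had 27.4 and 47.3 (0.79). Tnfsf13b (BAFF), a survival factor for B cells, had 23.2 and 46.8, with a difference of at least 0.85. Tnfsf10 (TRAIL), a death ligand, was above the floor only in the EiPS pool, at 32.99 (at least 0.34). Tnfsf9, the ligand of Tnfrsf9, had 61.3 and 74.8 (0.29), and Tnfsf4, the ligand of Tnfrsf4, had 34.8 and 39.8 (0.19). Tnfsf8 had 2.67 and 27.1. None of these signals exceeded 100. After quantile normalization 5 were measured, of which 4 were higher and 1 lower.

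TNF superfamily receptors were divided, with 2 of 16 at least 2-fold higher. Tnfrsf9 (4-1BB), a costimulatory receptor of activated T and natural killer cells, had signals of 42.2 and 170, 4.02-fold higher. Its 3 probe sets were all higher, by 0.29 to 2.01, the lower values being those with a B6 ES signal under the floor. Tnfrsf25 (DR3), a receptor of lymphocytes for Tnfsf15, had 6.54 and 97.4, at least 3.75-fold higher, on a single probe set. Tnfrsf11a (RANK), which osteoclast precursors need, had 55.4 and 101.00 (0.87), against -0.13 in its other probe set. The TNF receptors themselves were Tnfrsf1a, present on most cells, with 681 and 931 (0.45), and Tnfrsf1b, found mostly on leukocytes and endothelium, with 112 and 162 (0.53). Tnfrsf13c and Tnfrsf13b, receptors for BAFF, had 0.52 and 0.42, both at signals under 60.

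The remaining TNF receptors lay on both sides of equality. Tnfrsf12a (Fn14), induced in injured and growing tissue, had 1013 and 700 (-0.53). Tnfrsf21 (DR6), known from neurons and their axons, had 879 and 623 (-0.50). Tnfrsf19 (TROY), a receptor of neural and epithelial progenitors, had 871 and 631 (-0.47), but another probe set gave 0.67. Tnfrsf22, a decoy receptor for TRAIL in mouse, had 91.3 and 63.1 (-0.53), and its neighbour Tnfrsf23 had 46.2 and 49.7 (0.11). The osteoprotegerin gene Tnfrsf11b, a secreted decoy for the RANK ligand, had 87.6 and 104 (0.24). Of the T cell costimulators, Tnfrsf4 (OX40) had 109 and 101 (-0.10), Tnfrsf8 (CD30) had 52.4 and 41.4 (-0.34), and Tnfrsf18 (GITR) had 43.1 and 52.5 (0.29). By its brightest probe set Tnfrsf9 differed by more than these. The differences of Tnfrsf4, Tnfrsf8 and Tnfrsf18 were all under the SD between probe sets at their signals, so their signs say little. In all, 10 receptors were higher and 6 lower (median 0.26), and 9 and 7 after quantile normalization (median 0.028).

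**Figure D3:**
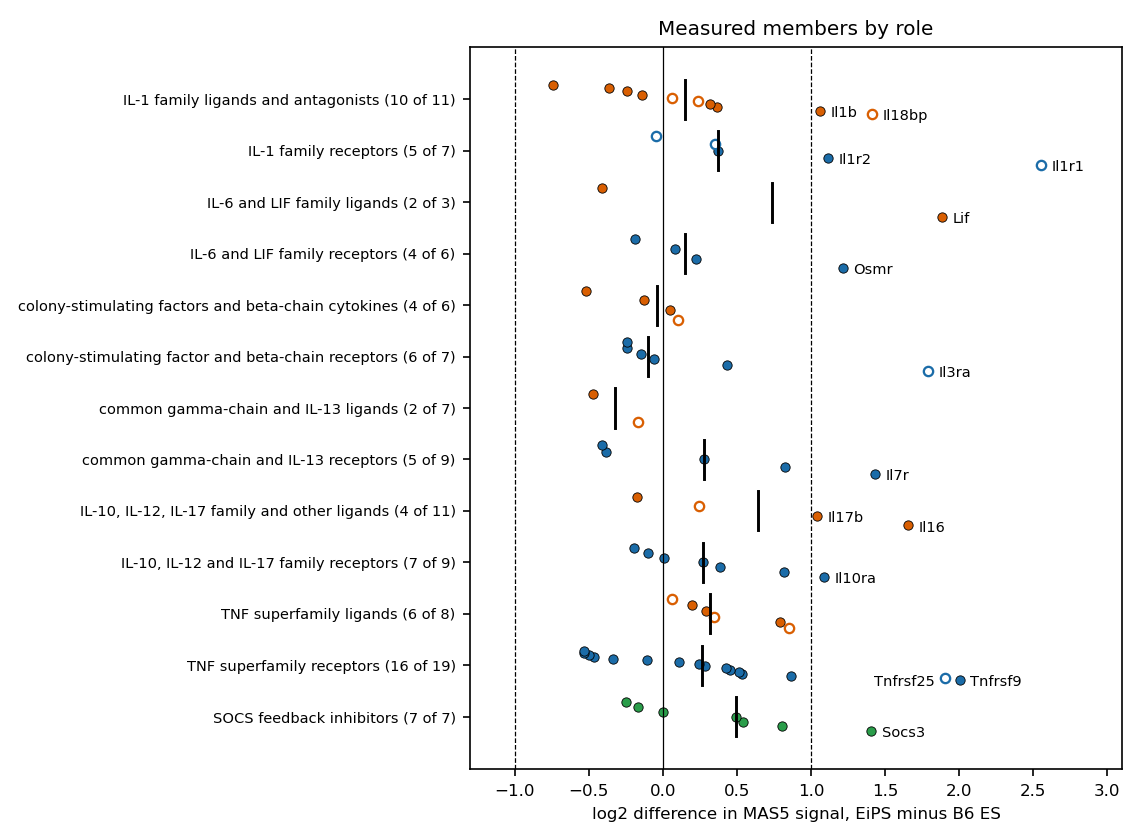
log2 difference in MAS5 signal (x axis, EiPS minus B6 ES) of each of the 78 measured members, by role (y axis, with the number measured of the number with a probe set), where open points are bounds, bars are medians and dashed lines mark 2-fold. All 14 named points lie right of the upper line and no point lies left of the lower one, where Il33 comes closest at -0.74.

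Receptors and ligands were compared as classes. Over 43 measured receptors the median was 0.27, with 8 at least 2-fold higher (18.6%), and over 28 ligands and antagonists it was 0.15, with 5 at least 2-fold higher (17.9%). The ligand median was -0.12 with a floor of 100 and -0.033 after quantile normalization, while the receptor median stayed above 0 under every setting tried. A smaller part of the ligands could be measured (60.9%) than of the receptors (75.4%). The members under the floor on both arrays numbered 33, with signals from 0.793 to 25.4. Besides those named above they were Csf2, Il3, Il1f9, Il1rl2, Il18rap, Il27ra, Il31ra, Il5ra, Il13ra2, Il21r, Il2ra, Il9r, Il12rb1, Il12rb2, Tnfsf11, Tnfsf14, Tnfrsf10b, Tnfrsf14, Tnfrsf17 and Il4i1. For these no difference was detectable, which does not show that they were silent.

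Agreement between probe sets could be checked for some members. Of the 14 at least 2-fold higher members, 5 had several probe sets above the floor (Osmr, Il7r, Il16, Tnfrsf9 and Socs3), but only Socs3 had several above it on both arrays, where the sign was free to differ, and its 3 had the same sign. Over all measured members, 19 had several above the floor on both arrays, and in 12 the signs were the same. The other 9 of the 14 rest on 1 probe set each.

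Related genes outside the naming rule were read from lists of the same pathways. These lists were chosen with earlier results of these data known, so their counts are descriptions and no independent support. Of 13 STAT3 and acute-phase response genes, all had higher EiPS signals, 3 of them read on the EiPS array only. At least 2-fold higher were 8 (median 1.42). Over all measured genes, 56.3% were higher by any amount and 5.81% at least 2-fold higher. Lcn2, an iron-scavenging protein of neutrophils and epithelium, had 330 and 4013, 12.1-fold higher. Hp (haptoglobin, 82.0 and 475), Cebpd (384 and 1297) and Saa3 (46.7 and 157) were 5.79-fold, 3.38-fold and 3.37-fold higher, the first a plasma protein of the acute phase and the second a transcription factor that IL-6 induces, although another Cebpd probe set gave -0.19. The plasma proteins Saa1 and Fgg were higher by at least 2.75-fold and 2.72-fold. With equal medians 12 of the 13 were higher. The kinases and STAT factors themselves had none of 10 members at 2-fold, and their median was 0.05, or -0.064 after quantile normalization. Stat3 itself had 1008 and 1010, and the differences ran from -0.81 for Stat5a to 0.58 for Stat6. Socs3 and the genes of the STAT3 and acute-phase list had higher signals at near-equal Stat3 signals, and STAT3 activity was not tested. The genes of that list under 2-fold were Cebpb (0.10), Bcl6 (0.13), Pim1 (0.39), Fosl2 (at least 0.62) and Junb (0.62).

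Of 18 measured NF-kB subunits, inhibitors and response genes, 7 were at least 2-fold higher and none at least 2-fold lower (median 0.35). Over all measured genes these shares were 5.81% and 3.05%, and this list too was chosen with earlier results known. The response genes Cxcl1, Ier3 and Ccl2 were 3.96-fold, 3.39-fold and 3.03-fold higher, and Ptgs2 (2.37-fold), Nfkbiz (2.35-fold) and Bcl3 (2.19-fold) followed, with a second Ptgs2 probe set at -0.36 and a second Nfkbiz probe set at 0.16. The NF-kB subunit Rela had 655 and 755, and 5 genes of the list were lower, down to -0.71. In the list of IL-1 and TNF adaptors and kinases, only Traf1, an NF-kB-induced adaptor that binds Tnfrsf9, was at least 2-fold higher among 20 (38.2 and 85.6, 2.24-fold), and the median was 0.26. Among TNF superfamily genes with other names, Fas, the death receptor, was 2.68-fold higher (73.2 and 196), the other 5 measured genes were higher by less than 2-fold (2 of the 6 were lower after quantile normalization), and Lta, Fasl, Cd40lg, Cd70, Cd27 and Edar were under the floor on both arrays. Of 13 measured cytokines and receptors of the same families with other names, none reached 2-fold. Sigirr, which restrains IL-1 signalling, came closest (79.9 and 159, 0.997) and Cish, a SOCS relative, followed at 0.78.

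**Figure D4:**
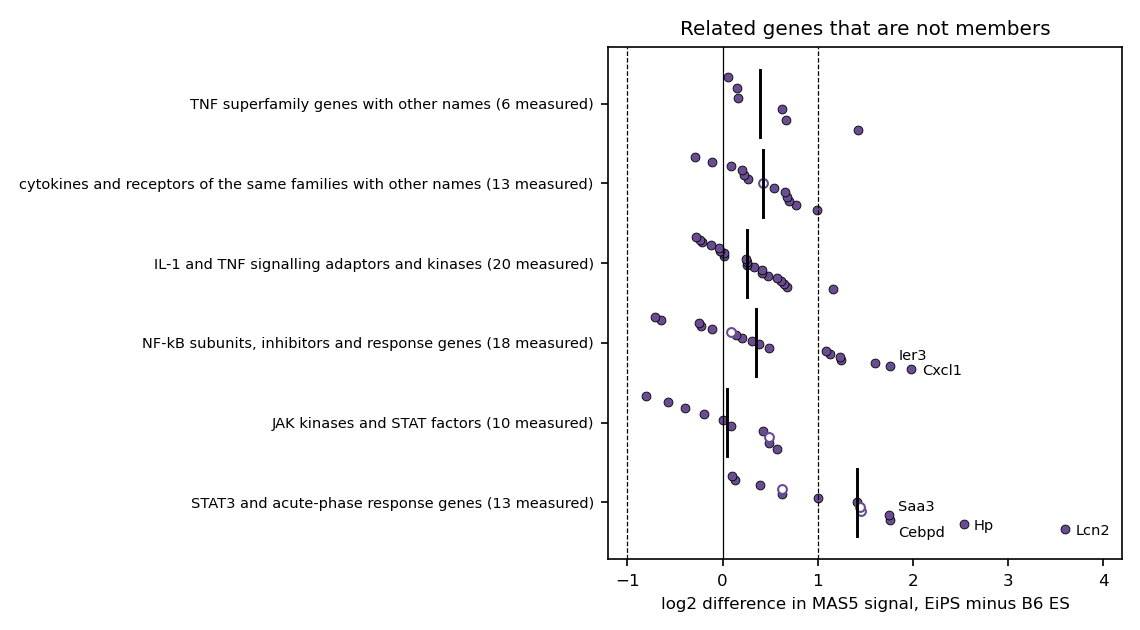
log2 difference in MAS5 signal (x axis, EiPS minus B6 ES) of measured genes in 6 lists of related genes that are not members (y axis), with open points for bounds, bars for medians and dashed lines at 2-fold. The STAT3 and acute-phase list has its median at 1.42, the JAK and STAT list near 0 at 0.05, and the NF-kB list splits, with 7 genes past 2-fold.

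Markers of the cells that carry these receptors were read on the same arrays, and none was listed at 0; their part in the results was not tested. Of 12 T cell markers 5 were measured and none reached 2-fold, the summed signal was 227 for B6 ES and 292 for EiPS, and 7 markers, among them Cd4, Cd3d and Foxp3, stayed under the floor on each array. For B and plasma cells 4 of 9 were measured, Sdc1 and Ighm were at least 2-fold higher, the sums were 900.0 and 1850, and the B cell markers Pax5, Cd79a and Ms4a1, with 2 more, did not pass the floor on either array. With the mean over probe sets, or without shared probe sets, none of the 4 reached 2-fold. All 14 macrophage markers were measured and only Cd68 was at least 2-fold higher, with sums of 12226 and 18602, of which Lyz2 gave 4103 and 7924. By any amount 9 were higher and 5 lower (median 0.27), down to -0.69 for Cx3cr1. Of 10 neutrophil markers 9 were measured, and S100a9 and Ltf were at least 2-fold higher. The sums were 1943 and 5072, of which Ltf gave 1434 and 3901. By any amount 8 were higher, but Ngp, Camp and Mmp8 were read on the EiPS array only, and 1 was lower (Elane, -0.63). Cxcr2 was under the floor on both arrays. Of 8 mast cell markers 4 were measured and Hdc was 2.13-fold lower, against 0.20 on the log2 scale in its other probe set (sums of 394 and 330). Of 12 keratinocyte markers 10 were measured, and Lor and Krtdap were at least 2-fold higher (3615 and 6554). All 10 fibroblast markers lay within 2-fold (42571 and 50717), and of 10 endothelial markers Vwf was 2.01-fold higher (3931 and 4540). Of the endothelial markers 8 were higher by any amount and 2 lower, Cldn5 (-0.89) and Tek (-0.55). The tissues of a teratoma were present in both pools: all 12 skeletal muscle markers were lower, 8 past 2-fold (86715 and 39109), as were all 10 neuronal markers, 4 past 2-fold (21867 and 10043), of which Map2 had another probe set at 0.66.

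The 2-fold calls depended on low signals and on the scaling. Socs3 and Osmr were at least 2-fold higher under each of the 10 settings planned, with differences from 1.27 to 1.42 and from 1.08 to 1.22. Il1r1 and Tnfrsf9 were so in 9 of 10 and Lif and Il16 in 8 of 10, while Il1b and Il10ra were so in 4 of the 9 settings that gave a value. With a floor of 100, 3 of 38 members remained at least 2-fold higher, namely Osmr, Socs3 and Il17b, a share of 7.89% beside 3.39% of all genes. Il17b was under 2-fold with log2(signal + 64) and with each of the 3 other scalings, and reached it in 5 of the 9 settings that gave a value, as Il1r2 did in 5 of 10.

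**Figure D5:**
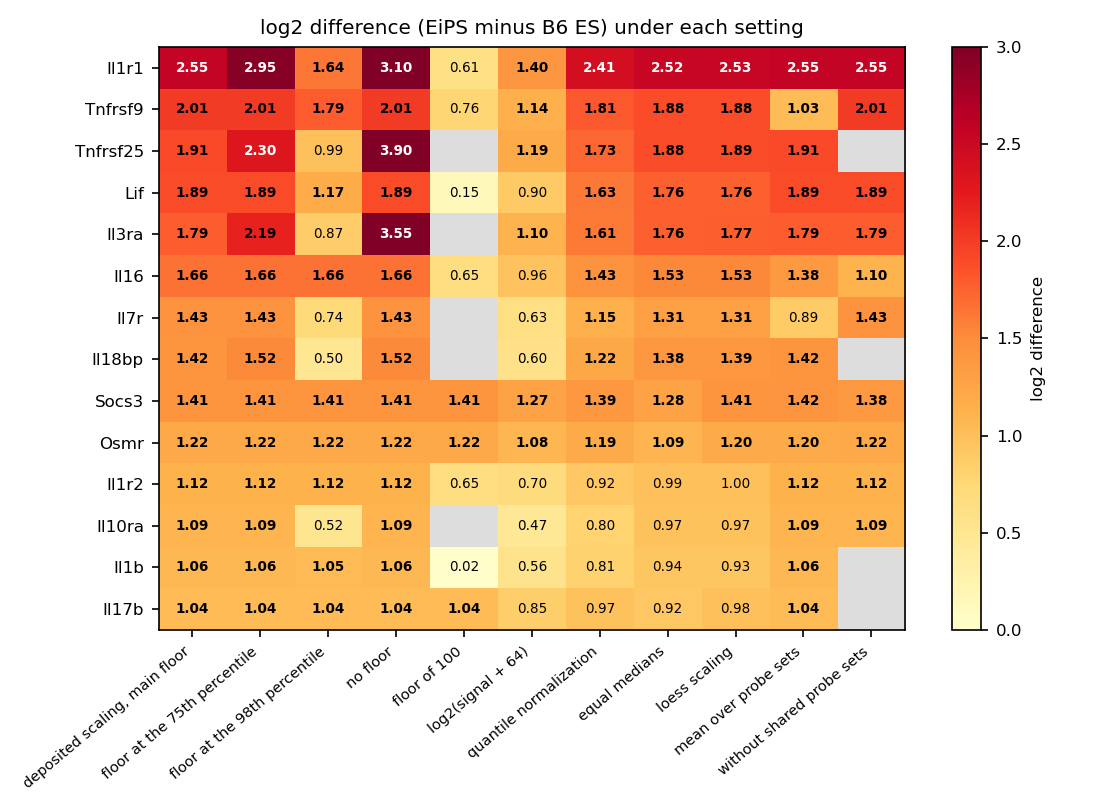
log2 difference (EiPS minus B6 ES; colour and number) of the 14 members 2-fold or more higher in the EiPS pool (rows) under the main processing and 10 alternatives (columns), with values of 1 or more in bold and grey where a setting gave no value. The rows for Socs3 and Osmr hold bold values throughout, and the column for a floor of 100 holds 3.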

How the data were processed

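Gene expression was measured on Affymetrix mouse arrays, 1 for each pool of 2 tumours. The authors deposited an intensity for every probe set, linear in scale, from MAS5 in Affymetrix Expression Console per the submitters' processing notes. Software versions were not given in the sources used here. From the values, both arrays had a 2% trimmed mean of 500.2, so they had been scaled alike, and no further scaling was applied. MAS5 subtracts mismatch signal, so dim values carry more noise, and all amounts are relative.

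Of 22690 probe sets, 20380 had 1 gene symbol in the platform annotation, 691 several and 1555 none, and 64 were controls. Symbols were updated by Entrez identifier for 20351 with RefSeq (GRCm38.p6, names only). Each gene took its probe set of highest mean log2 signal. Named were all members at least 2-fold different, every SOCS gene, the 2 nearest below 2-fold in each role list, members under the floor, and at most 6 genes at least 2-fold different in each other list. Other genes were singled out after their values were seen. The members and lists were chosen with earlier results of these data known. No p-value was computed. Values were computed in Python 3.11.15 with pandas 2.3.3. Alternatives were other floors, log2(signal + 64), 3 other scalings, and other uses of probe sets.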

Additional observations from a re-analysis of the deposited data

How the results depend on the processing

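The count of members 2-fold or more higher was 14 in the main values and 9 with a 98th percentile floor, 6 with log2(signal + 64), 3 with a floor of 100 and 27 with no floor, which takes in all 111 members. It was between 10 and 15 under the other settings, and under each of them the members counted were among the 14, apart from Tnfsf13b with the lower floor. The count at least 2-fold lower was 8 with no floor and 0 otherwise. The median over all members was 0.14 with log2(signal + 64), 0.11 with equal medians or loess scaling, 0.065 with a floor of 100 and 0.014 after quantile normalization. The ligand median was 0.29 with a 75th percentile floor, 0.32 with none, -0.12 with a floor of 100, -0.033 after quantile normalization and 0.052 over genes above the floor on both arrays, a setting chosen after seeing the data. The receptor median was 0.17 with a floor of 100, 0.14 with log2(signal + 64) or loess scaling, 0.13 with equal medians and 0.033 after quantile normalization. The SOCS median was 0.16 with a floor of 100, 0.24 with log2(signal + 64) and 0.28 after quantile normalization. Higher floors leave fewer genes; beyond that the cause was not tested. Equal medians moved the median of all genes by -0.12, and the share of higher genes among all 2-fold calls was 65.6% as deposited, 53.1% after quantile normalization and 52.6% with equal medians. Of 393 values of single named members under the alternatives, 346 moved by less than the SD between probe sets over all signals (0.40) and 47 by more. Many could not move, since some settings leave a given gene's value as it was. None of the 2-fold calls changed sign, but floors and log2(signal + 64) cannot reverse the sign of a probe set. No paired analysis was possible because each group has 1 array.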

Other observations

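Several members lie side by side in the genome, taking protein-coding genes in the order of GRCm38.p6, and neighbours did not share their differences in every case. On chromosome 1, Il1r2 and Il1r1 are adjacent and were both 2-fold or more higher in the EiPS pool, by 1.12 and by at least 2.55 on the log2 scale, while the next gene, Il1rl2, was under the floor on both arrays. On chromosome 15, Osmr, which was 1.22 higher, lies beside Lifr, which differed by 0.08. On chromosome 2, Il1b (1.06) lies beside Il1a (0.32). A run of 6 members on the same chromosome, the IL-36 genes with Il1f10 and the antagonist Il1rn, had differences from -0.36 to 0.37 among the 5 that were measured.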
